A study of Mus musculus with 6 samples.

Results

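The genes described are 26 members of the cholesterol synthesis pathway and of its SREBP2 control: enzymes of sterol synthesis, SREBP2 regulators and genes of sterol transport, found by symbol among the 54532 Ensembl gene rows of a liver RNA-seq count table. Each of the 26 symbols matched exactly 1 row (GENCODE M21, GRCm38), and all 26 passed the low-count filter into the 14145 genes tested. The table covers 6 mice, 1 library per mouse: 3 wild-type mice and 3 Cd44 knockout mice of the strain B6.Cg-Cd44tm1Hbg/J, which carry a targeted Cd44 allele. The CD44 protein sits in the cell membrane and binds hyaluronan, a sugar polymer of the matrix. Both genotypes had the same exposure: 10 days on the Lieber-DeCarli diet at 5% ethanol (by volume), 1 gavage of ethanol at 5 g/kg on day 11, and liver collection 9 hours later. Mice without ethanol were not analysed here, so the comparison asks how sterol genes differed between genotypes in the ethanol-exposed liver. Neither age nor the strain name of the wild-type mice is given in the sources used here.

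Hepatocytes build cholesterol from acetyl-CoA through mevalonate, isoprenoid diphosphates, squalene and lanosterol. SREBP2, encoded by Srebf2, is a transcription factor held in the endoplasmic reticulum membrane as a precursor. When membrane sterol is low, SCAP escorts it to the Golgi, where proteases release the active part, and when sterol is high, INSIG proteins hold SCAP back. Most enzymes of the pathway are transcriptional targets of SREBP2 and tend to move together with sterol supply, and the liver carries much of this synthesis.

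The members share a promoter feature that the choice of genes did not use. RefSeq promoter windows (GRCm38.p6) were found for 21 of the 26 members, which leaves out Fdps, Fdft1, Sqle, Stard4 and Npc1, and the 250 bases before the annotated start were searched on both strands for 3 letter patterns. CCAAT holds the core letters bound by NF-Y, a factor that works beside SREBP proteins on sterol promoters. It was present for 19 of the 21 members (90.5%), against 40.2% of the 10455 tested genes with a window. A gene was counted if any of its windows held the letters, and some members had several windows. By window, 19 of the 27 member windows held CCAAT, against 33.85% of all 32851 windows. TCACNCCAC, the letters of the classical sterol regulatory element, was present for 1 of 21 members, Hmgcs1, against 1.35% of tested genes. CACCCCAC, which overlaps that pattern, was present for 2, Acat2 and Hmgcs1, against 3.41%. A match is a description of the letters and not of binding. The last 150 bases before the start are shown for 4 members whose levels lay higher in every knockout mouse and for Ggps1, which did not have this pattern. Capitals mark CCAAT, its reverse complement ATTGG, and in Hmgcs1 the sterol element letters:
Hmgcs1 (chr13:119690201-119690350, plus strand): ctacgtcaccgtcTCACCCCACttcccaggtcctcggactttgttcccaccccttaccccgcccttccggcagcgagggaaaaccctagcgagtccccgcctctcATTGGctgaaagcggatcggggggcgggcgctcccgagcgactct
Lss (chr10:76531455-76531604, plus strand): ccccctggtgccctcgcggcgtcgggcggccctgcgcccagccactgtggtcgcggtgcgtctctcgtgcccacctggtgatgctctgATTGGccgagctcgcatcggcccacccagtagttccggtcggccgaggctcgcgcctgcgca
Msmo1 (chr8:64733579-64733728, minus strand): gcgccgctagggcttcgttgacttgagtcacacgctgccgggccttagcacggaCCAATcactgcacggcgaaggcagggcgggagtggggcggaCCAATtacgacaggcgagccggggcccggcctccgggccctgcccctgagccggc
Hsd17b7 (chr1:169969206-169969355, minus strand): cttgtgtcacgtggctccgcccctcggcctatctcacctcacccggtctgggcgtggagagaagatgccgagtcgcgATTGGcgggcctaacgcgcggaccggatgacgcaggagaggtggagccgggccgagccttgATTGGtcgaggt
Ggps1 (chr13:14063489-14063638, minus strand): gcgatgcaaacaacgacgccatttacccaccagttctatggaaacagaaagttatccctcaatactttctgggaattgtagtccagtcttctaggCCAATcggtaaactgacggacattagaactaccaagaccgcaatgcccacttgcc
All 5 promoters, that of Ggps1 included, hold CCAAT or ATTGG close to the start. A link between these letters and the fold changes was not tested. Hmgcs1 alone of the 5 holds the sterol element, 137 bases before the start.

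Reads assigned to annotated genes came to between 15429784 and 19293777 per library, and the members had between 28 (Fdps in wild-type 3) and 10993 counts in a library. The targeted gene, Cd44, was counted 590, 175 and 568 times in wild-type mice 1, 2 and 3 and 1, 0 and 0 times in knockout mice, so no library went against its label. Hepatocyte markers were abundant in every library, with a summed level of 95020 to 110700 CPM (read counts scaled to library size, with TMM factors) in wild-type and 101600 to 128200 in knockout mice. Xist was present at 443 to 759 CPM in the 6 libraries while 4 Y-linked genes had 0 counts. For the members wild-type 3 stood apart: it was the lowest of the 6 libraries for 21 of the 26. The share of all genes lowest in that mouse was not computed. Wild-type 3 also had the highest cell cycle genes and 1528 CPM of Lcn2, an acute-phase gene, against 61.6 to 189 CPM elsewhere. Wild-type 2 differed in other genes, with macrophage markers summing to 359 CPM against 964 and 803 CPM in wild-type 1 and 3. Fold changes of the members and of the pathway groups are given with and without wild-type 3. Other values given once are from all 6 mice and may differ without it. Reads are from whole liver, where fewer cells of a type and less RNA per cell cannot be told apart.

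Sterol genes had higher mean levels in the Cd44 knockout livers along most of the pathway. Of the 26 members, 24 had a higher mean in the knockout, where 48.9% of all genes tested did (51.1% were lower), and the median log2 fold change (knockout minus wild-type) was 0.48 against -0.01 over all genes. For 9 members every knockout mouse lay above every wild-type mouse, and for 0 members every knockout mouse lay below; among all genes tested the knockout values lay wholly above in 8.81% and wholly below in 9.42%. These 9 were Hmgcs1, Pmvk, Idi1, Fdft1, Sqle, Lss, Cyp51, Msmo1 and Hsd17b7. None of the 26 passed an adjusted p of 0.05 over all genes in edgeR, the main test, which called 2 of 14145 genes (0.0141%), while 9 members had an unadjusted p under 0.05, all higher, against 5.22% of genes tested with such a p and a higher mean (7.59% with a lower mean). At an adjusted p of 0.1 edgeR called 0 members and 0.0212% of genes, and with mouse number as a block 0 members and 0.00707%. DESeq2 called 2 members, Sqle and Lss, both higher, where it called 0.699% of genes higher in the knockout and 2.03% in either direction, and limma-voom called 0 members and 0 genes. Without wild-type 3, 22 of 26 members were higher in mean (48.2% of all genes), the median was 0.31, and 8 had an unadjusted p under 0.05, all higher, against 5.29% of genes. Those 8 were Hmgcs1, Pmvk, Idi1, Fdft1, Sqle, Lss, Msmo1 and Hsd17b7. For members given below only with all mice, the log2 fold change without wild-type 3 was 0.32 for Pmvk, 0.41 for Mvk and 0.58 for Fdft1. It was 0.62 for Npc1, -0.25 for Lbr and -0.20 for Ggps1.

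**Figure D1:**
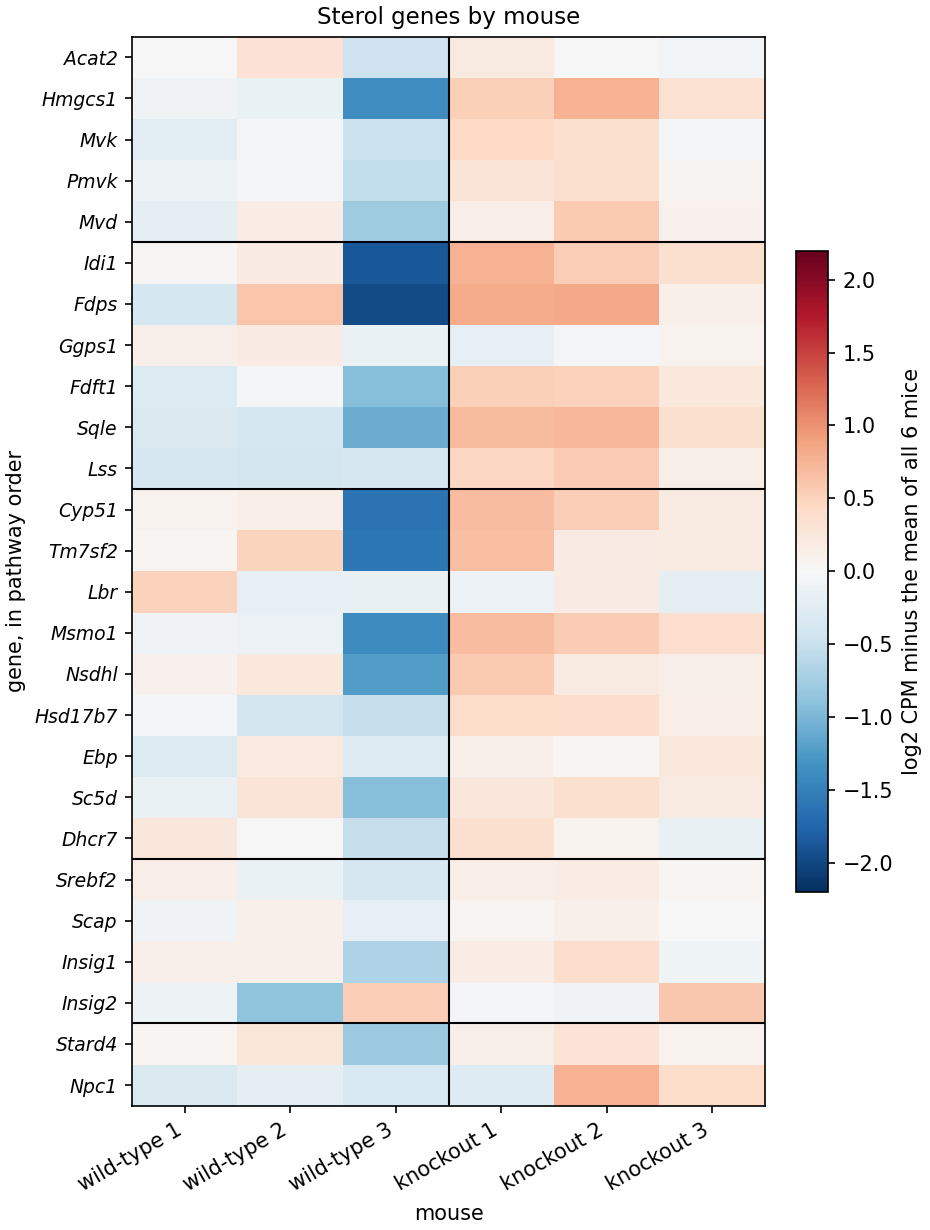
Log2 CPM of each sterol gene (rows, in pathway order, black lines between the mevalonate, isoprenoid and squalene, lanosterol to cholesterol, regulator and transport genes) in each mouse (columns), minus the mean of the 6 mice. Wild-type 3 is lowest for 21 of 26 genes, and the knockout columns are mostly above the mean, at a mean over the 26 genes of 0.32, 0.36 and 0.14.

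Averaged over the 26 members as log2 CPM minus the mean of the 6 mice, the level was -0.06, 0.01 and -0.77 in wild-type mice 1, 2 and 3 and 0.32, 0.36 and 0.14 in knockout mice 1, 2 and 3. The groups did not overlap, but knockout 3 lay only a little above wild-type 2. Knockout 3 was the lowest knockout mouse for 21 members, and wild-type 3 the lowest wild-type mouse for 22. The highest library was a knockout mouse for 22 members, knockout 2 for 11 of them and knockout 1 for 9.

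The mevalonate arm turns acetyl-CoA into isopentenyl diphosphate, and all 5 of its members had a higher mean in the knockout (median log2 fold change 0.51). Without wild-type 3, 4 of the 5 were higher and the median was 0.32. Hmgcs1 encodes the cytosolic HMG-CoA synthase, which makes the precursor of mevalonate. Its level was 146, 139 and 59.4 CPM in wild-type mice 1, 2 and 3 and 220, 260 and 193 CPM in knockout mice 1, 2 and 3. The genotypes did not overlap, and wild-type 3 was far below the other wild-type mice (log2 fold change 0.97 ± 0.32 SE, edgeR adjusted p = 0.294; 0.66 without wild-type 3). Pmvk, phosphomevalonate kinase, also separated the genotypes, with 30.7, 32.3 and 22.98 CPM in wild-type and 40.7, 42.8 and 34.6 CPM in knockout mice (0.46 ± 0.16, adjusted p = 0.301). Mvk, mevalonate kinase, had 16.2, 18.9 and 13.9 CPM in wild-type and 26.2, 24.7 and 18.9 CPM in knockout mice (0.51 ± 0.18, adjusted p = 0.297). Knockout 3 and wild-type 2 were level for Mvk, and the other knockout mice were above all wild-type mice. Mvd, the mevalonate diphosphate decarboxylase, ran from 11.3 to 21.9 CPM in wild-type and from 20.8 to 29.2 CPM in knockout mice (0.51 ± 0.25; 0.30 without wild-type 3). Acat2, the cytosolic thiolase that makes acetoacetyl-CoA, had the smallest difference of the arm, at 31.5 to 53.9 CPM in wild-type mice and 41.5 to 49.7 CPM in knockout mice (0.07 ± 0.19; -0.11 without wild-type 3). Its value is uncertain because 39.1% of its 50-base stretches also occur in other genes, chiefly Acat3.

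The isoprenoid and squalene steps held the largest differences, with 5 of 6 members higher in mean and a median log2 fold change of 0.83 (also 5 of 6 without wild-type 3, with a median of 0.52). Sqle encodes squalene epoxidase, which adds the first oxygen to squalene and is a rate-limiting step of the sterol branch. Its level was 95.6, 91.2 and 55.9 CPM in wild-type mice 1, 2 and 3 and 193, 198 and 151 CPM in knockout mice 1, 2 and 3, so that the lowest knockout mouse was well above the highest wild-type mouse. It had the largest difference of the 26 members (log2 fold change 1.16 ± 0.22, 95% interval 0.66 to 1.66, a 2.23-fold ratio of means). DESeq2 called it higher (adjusted p = 0.000417), while edgeR did not (adjusted p = 0.217; unadjusted p = 0.000727), and it stood at 0.95 without wild-type 3. Lss, lanosterol synthase, which closes the sterol rings, did not share the low value of wild-type 3: it had 37.0, 35.8 and 36.7 CPM in wild-type and 65.3, 70.3 and 51.8 CPM in knockout mice. The wild-type mice were within 1.03-fold of each other, and all knockout mice were above them (0.78 ± 0.14, 95% interval 0.46 to 1.09; edgeR adjusted p = 0.217, DESeq2 adjusted p = 0.00243). Leaving out any 1 mouse kept the fold change of Lss between 0.68 and 0.90 and that of Sqle between 0.95 and 1.297.

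Fdft1, squalene synthase, which commits farnesyl diphosphate to sterols, had 67.8, 82.2 and 43.6 CPM in wild-type and 120, 118 and 97.6 CPM in knockout mice, without overlap (0.79 ± 0.22; edgeR adjusted p = 0.237, DESeq2 adjusted p = 0.0502). The count of Fdft1 is uncertain, since 774 bases of its exons lie under Ctsb on the opposite strand, a gene with 9.20 times its counts; Ctsb itself was lower in mean in the knockout (-0.30 ± 0.15). Idi1, the isopentenyl diphosphate isomerase, had 58.7, 65.7 and 15.7 CPM in wild-type and 98.5, 83.6 and 73.6 CPM in knockout mice. All knockout mice were above the wild-type mice, but the size rested on wild-type 3 (0.87 ± 0.48, adjusted p = 0.521; 0.45 without wild-type 3). Fdps, farnesyl diphosphate synthase, had 1.43 to 9.07 CPM in wild-type mice and 6.45 to 10.7 CPM in knockout mice (0.90 ± 0.57; 0.46 without wild-type 3 and 1.65 without wild-type 2). Its low level is uncertain, since 26.2% of its 50-base stretches occur in other genes, among them a gene model on the same strand that shares 1124 exon bases; for Idi1 this share was 25.3%. Ggps1, which draws isoprenoids away from sterols to geranylgeranyl diphosphate, was the exception, at 9.83 to 12.5 CPM in wild-type mice and 9.63 to 11.5 CPM in knockout mice (-0.10 ± 0.17, 95% interval -0.48 to 0.28).

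**Figure D2:**
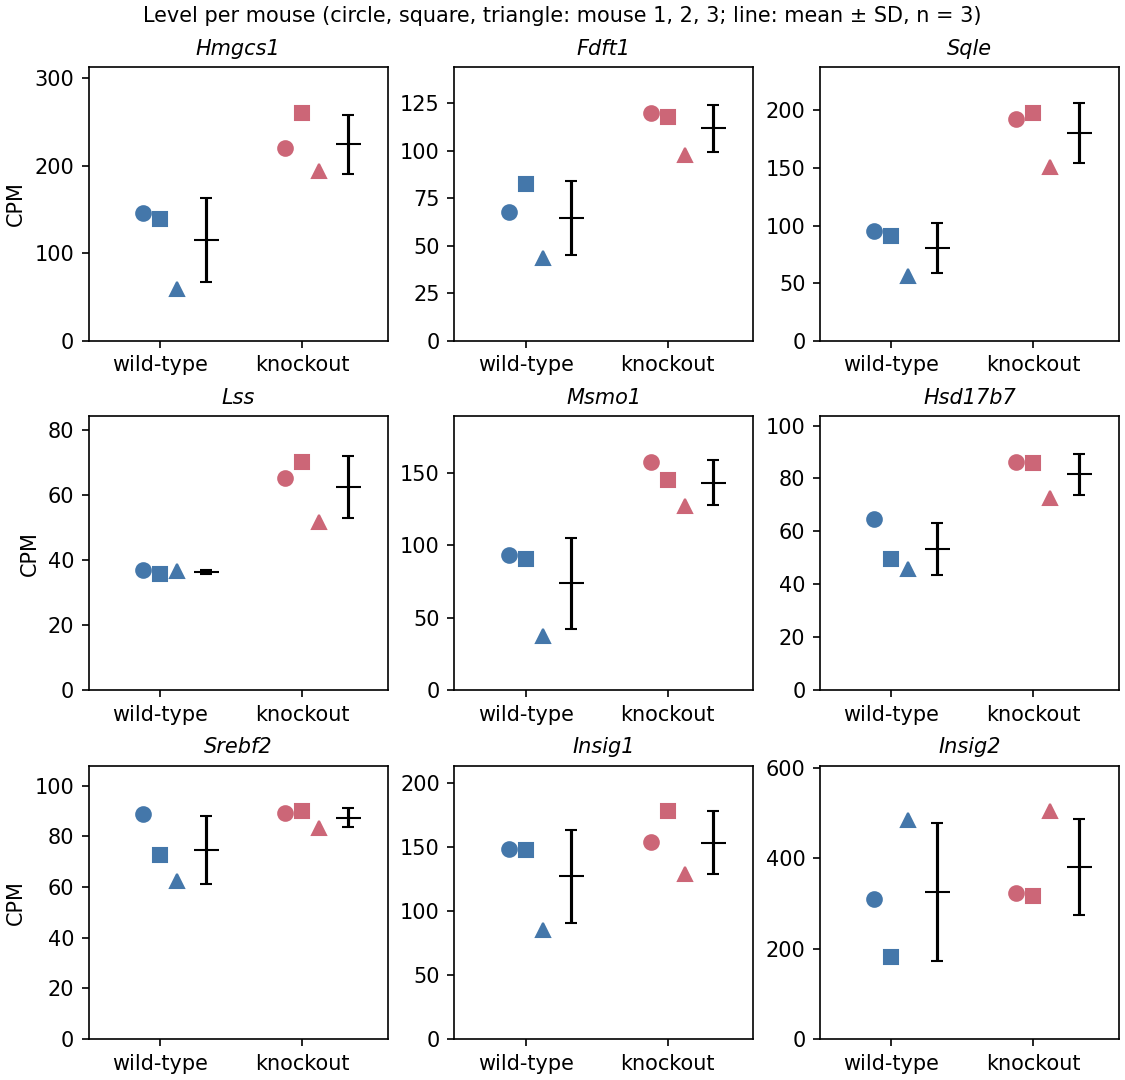
CPM of 9 sterol genes in each mouse, with the mean and SD (n = 3) of each genotype beside the points. The 6 enzymes shown all belong to the 9 members for which every knockout mouse lies above every wild-type mouse. Other enzymes, such as Mvk, Mvd, Fdps and Sc5d, overlap between genotypes, as do the regulators Srebf2, Insig1 and Insig2.

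From lanosterol to cholesterol, 8 of 9 members had a higher mean in the knockout (median 0.48). Without wild-type 3 this became 7 of 9 with a median of 0.15. The 3 that separated the genotypes, Cyp51, Msmo1 and Hsd17b7, are enzymes of lanosterol demethylation. Nsdhl of the same demethylation overlapped between genotypes, as did Tm7sf2 and Lbr, and Ebp, Sc5d and Dhcr7 of the later steps. Msmo1, the sterol C4-methyl oxidase, had 93.3, 90.5 and 37.6 CPM in wild-type and 158, 145 and 127 CPM in knockout mice, with no overlap (0.96 ± 0.32, adjusted p = 0.297; 0.64 without wild-type 3). Hsd17b7, the 3-ketosteroid reductase of the same demethylation, had 64.6, 49.7 and 45.7 CPM in wild-type and 86.2, 85.8 and 72.7 CPM in knockout mice, also without overlap (0.61 ± 0.16, edgeR adjusted p = 0.217, DESeq2 adjusted p = 0.0547; 0.51 without wild-type 3). Cyp51, the lanosterol demethylase, had 176, 186 and 54.6 CPM in wild-type and 267, 243 and 191 CPM in knockout mice. Knockout 3 was only just above wild-type 2, and the fold change was carried largely by wild-type 3 (0.75 ± 0.43, adjusted p = 0.525; 0.37 without wild-type 3). Dhcr7, which makes cholesterol from its last precursor, had 136, 115 and 80.1 CPM in wild-type and 146, 120 and 102 CPM in knockout mice. The genotypes overlapped (0.15 ± 0.21, 95% interval -0.34 to 0.65; -0.03 without wild-type 3).

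The remaining members of this stretch overlapped between genotypes. Tm7sf2 and Lbr both encode sterol C14 reductases and differed in pattern. Tm7sf2 ran from 34.1 CPM in wild-type 3 to 144 CPM in wild-type 2, with 117 to 162 CPM in knockout mice (0.49 ± 0.47; 0.09 without wild-type 3 and 0.93 without wild-type 2). Lbr, which is also a nuclear envelope protein, had 11.6 to 18.8 CPM in wild-type mice and 11.4 to 14.98 CPM in knockout mice (-0.13 ± 0.23; 0.13 without wild-type 1) and did not share the low value of wild-type 3. Nsdhl, which removes the C4 carboxyl group, had 19.6 to 54.6 CPM in wild-type mice and 50.6 to 68.8 CPM in knockout mice (0.48 ± 0.36; 0.15 without wild-type 3 and 0.75 without wild-type 2). Sc5d, the lathosterol desaturase, had 226 to 523 CPM in wild-type mice and 498 to 551 CPM in knockout mice (0.46 ± 0.28; 0.19 without wild-type 3 and 0.77 without wild-type 2). Ebp, the sterol isomerase, had 123 to 177 CPM in wild-type mice and 155 to 177 CPM in knockout mice (0.22 ± 0.17; 0.14 without wild-type 3, 0.13 without wild-type 1 and 0.43 without wild-type 2).

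**Figure D3:**
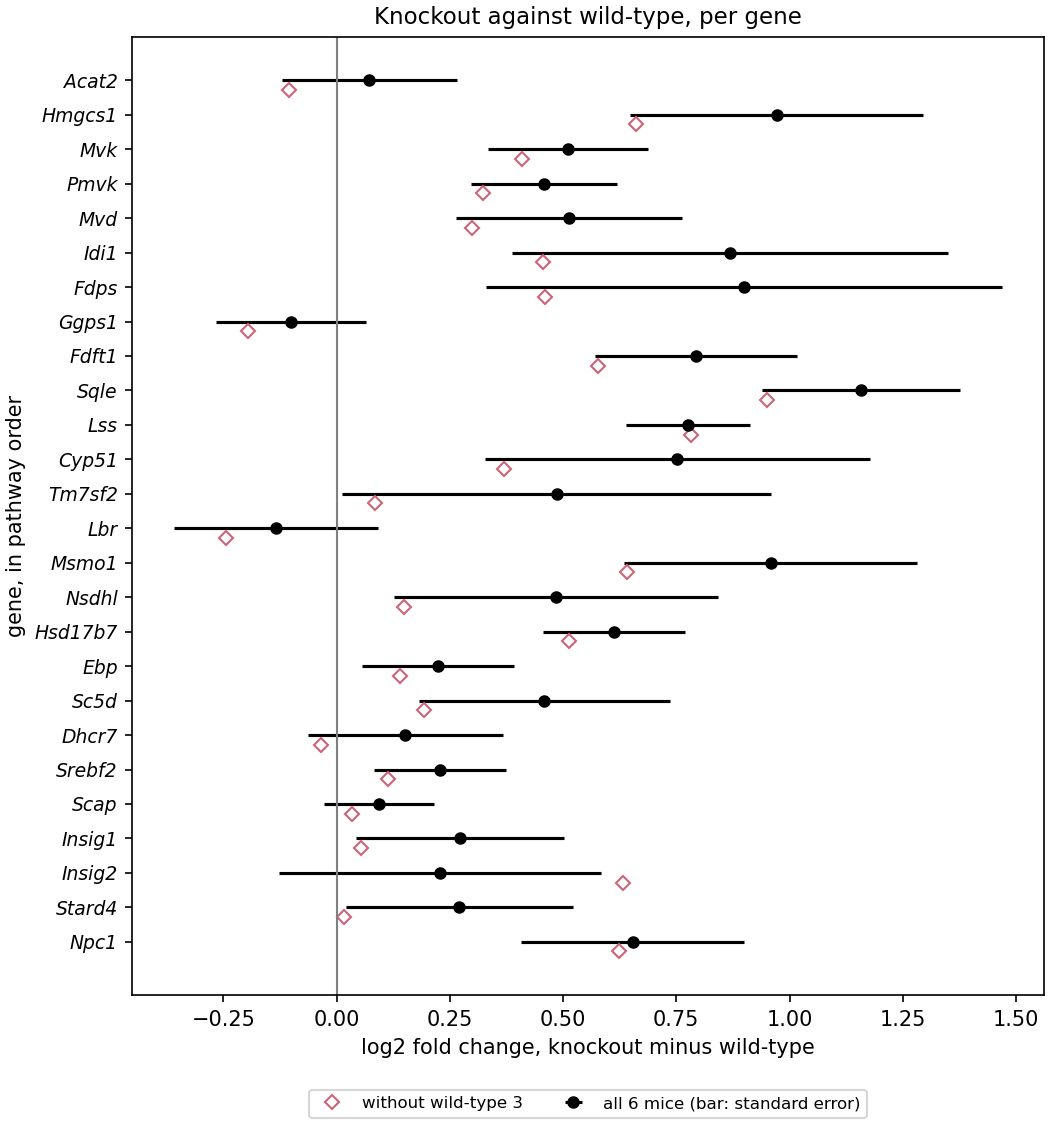
Log2 fold change of each sterol gene, knockout minus wild-type, from all 6 mice (points, with standard errors) and without wild-type 3 (open diamonds). Sqle at 1.16, Hmgcs1 at 0.97 and Msmo1 at 0.96 lead, Lss is nearly the same without that mouse (0.78), and Tm7sf2, Stard4 and Insig1 come close to 0 without it.

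The regulators had small fold changes: all 4 had a higher mean in the knockout with a median of 0.23 (0.08 without wild-type 3, again 4 of 4 higher), and all 4 overlapped between genotypes. A difference between regulators and enzymes was not tested. Srebf2 itself had 88.8, 72.8 and 62.4 CPM in wild-type and 89.1, 90.0 and 83.2 CPM in knockout mice (0.23 ± 0.15, adjusted p = 0.573, 95% interval -0.11 to 0.56; 0.11 without wild-type 3 and 0.37 without wild-type 1). Wild-type 1 lay at the level of the knockout mice for this gene. Scap, the sterol-sensing escort, had 117, 134 and 110 CPM in wild-type and 129, 134 and 123 CPM in knockout mice (0.09 ± 0.12, 95% interval -0.19 to 0.37; 0.03 without wild-type 3 and 0.19 without wild-type 2). Insig1, itself a target of SREBP2, had 149, 147 and 85.5 CPM in wild-type and 154, 178 and 129 CPM in knockout mice (0.27 ± 0.23; 0.05 without wild-type 3 and 0.15 without knockout 2). Insig2, whose liver transcript responds to fasting and insulin rather than to SREBP2, had 311, 182 and 485 CPM in wild-type and 324, 317 and 504 CPM in knockout mice. Insig2 was the only one of the 26 members for which wild-type 3 was the highest wild-type mouse, and its highest mouse overall was knockout 3 (0.23 ± 0.36, adjusted p = 0.855; 0.63 without wild-type 3 and -0.05 without wild-type 2).

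Both transport genes had a higher mean in the knockout, with and without wild-type 3. Npc1, which moves cholesterol out of lysosomes, had 211, 229 and 206 CPM in wild-type and 217, 450 and 349 CPM in knockout mice (0.65 ± 0.25, adjusted p = 0.329). Knockout 1 lay among the wild-type mice while knockout 2 and knockout 3 were well above them, and the fold change was 0.91 without knockout 1 and 0.39 without knockout 2. Npc1 thus had a different order of mice from the enzymes, for which knockout 3 was usually the lowest knockout mouse. Stard4, a soluble sterol carrier, had 44.1 to 92.6 CPM in wild-type mice and 81.1 to 95.2 CPM in knockout mice (0.27 ± 0.25; 0.02 without wild-type 3 and 0.50 without wild-type 2).

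Levels can be compared between genes only per length of exon. On that scale (CPM per kilobase of the exons of all annotated transcripts, RPKM; mean ± SD, n = 3) the wild-type liver had most Insig2 (93.8 ± 43.9 RPKM), then Sc5d (77.9 ± 30.6), Ebp (61.1 ± 13.3), Insig1 (41.1 ± 11.7) and Cyp51 (31.4 ± 16.5). Neighbours in this order differed by less than the larger of their SDs, except Ebp and Insig1. The lowest were Fdps (1.19 ± 0.91), Ggps1 (2.41 ± 0.29), Lbr (2.95 ± 0.86) and Lss (3.38 ± 0.06), where Fdps and Ggps1 differed by more than either SD and the next neighbours did not differ beyond the SD of Lbr. The value of Fdps is uncertain for the shared sequence given above. The place of Lss is uncertain too, since its 36.5 CPM were divided by 10.8 kilobases, the exons of all its annotated transcripts. Sqle was at 14.6 ± 3.92 RPKM in wild-type and 32.6 ± 4.66 RPKM in knockout liver, and Hmgcs1 at 24.9 ± 10.4 and 48.9 ± 7.33 RPKM, differences wider than the SD of either genotype.

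Other genes of the sterol system, taken from lists that hold no member, were split in direction. Over all genes tested, 48.9% were higher in mean. With an unadjusted edgeR p under 0.05, 5.22% were higher and 7.59% lower, and DESeq2 called 2.03% of genes in either direction. Of 11 genes for SREBP processing and sterol-sensing degradation, 6 were higher and 5 lower in mean (median 0.00), and 0 passed in edgeR or DESeq2, while 3 higher and 1 lower had an unadjusted p under 0.05. Erlin1, a scaffold for the degradation of sterol-sensing proteins, had 60.6 to 68.9 CPM in wild-type mice and 78.3 to 110 CPM in knockout mice (0.60 ± 0.15, adjusted p = 0.217). Rnf145, a sterol-responsive ubiquitin ligase, lay the other way at 46.3 to 63.0 CPM in wild-type mice and 35.4 to 36.2 CPM in knockout mice (-0.54 ± 0.14, adjusted p = 0.222). Of 14 tested sterol storage and transport genes, 6 were higher and 8 lower in mean (median -0.07); 0 passed in edgeR, 3 had an unadjusted p under 0.05, all higher, and DESeq2 called 1. This was Gramd1c, a sterol transfer protein, with 54.4 to 67.2 CPM in wild-type mice and 79.3 to 137 CPM in knockout mice (0.87 ± 0.20, DESeq2 adjusted p = 0.0132). Soat2, which esterifies cholesterol, had 68.2 to 100 CPM in wild-type mice and 91.6 to 166 CPM in knockout mice (0.66 ± 0.24, adjusted p = 0.315). The 11 isoprenoid branch enzymes (5 higher, 6 lower, median -0.04) and the 5 tested redox partners of sterol enzymes (4 higher, 1 lower, median 0.10) had 0 calls by edgeR or DESeq2 and 0 with an unadjusted p under 0.05. Of the 6 genes of LXR, the receptor for oxysterols, and its targets, 4 were higher and 2 lower (median 0.13) with 0 calls by either tool and 1 unadjusted p under 0.05. That gene was the sterol exporter Abcg1, at 6.85 to 12.5 CPM in wild-type mice and 4.53 to 6.71 CPM in knockout mice (-0.80 ± 0.27, adjusted p = 0.294).

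Fatty acid synthesis genes, which are driven mainly by the related factor SREBP1, were split in direction between genotypes, and 11 of 13 were lowest of the 6 mice in wild-type 3. Of the 13, 7 were higher and 6 lower in mean (median 0.04), with 0 calls by edgeR or DESeq2 and 0 with an unadjusted p under 0.05. Gpam, which starts glycerolipid synthesis, had the smallest p of the list and was not low in wild-type 3: it had 151, 139 and 156 CPM in wild-type and 111, 137 and 124 CPM in knockout mice, without overlap (-0.26 ± 0.13, adjusted p = 0.434). Acly, ATP citrate lyase, had 788, 1180 and 106 CPM in wild-type and 350, 517 and 403 CPM in knockout mice (-0.71 ± 0.73, adjusted p = 0.760). Fasn, fatty acid synthase, chosen after its values were seen, had 1850, 1821 and 231 CPM in wild-type and 640, 1177 and 967 CPM in knockout mice (-0.49 ± 0.70). For Acly and Fasn the knockout mice lay between wild-type 3 and the other wild-type mice. The 9 sterol members without overlap cannot be set against them, since those members are defined by knockout values above all wild-type mice. Other sterol enzymes, such as Mvk, Mvd and Fdps, overlapped between genotypes. Without wild-type 3, 12 of the 13 were lower in mean, where 51.8% of all genes were, with a median of -0.29 and 5 unadjusted p values under 0.05, all lower, against 6.40% of genes. Of the 5 bile acid synthesis genes, 2 were higher and 3 lower, with 0 calls by either tool and 0 unadjusted p values under 0.05. Cyp27a1, a sterol hydroxylase, had 275 to 325 CPM in wild-type mice and 309 to 389 CPM in knockout mice (0.26 ± 0.15, adjusted p = 0.512). Cyp7a1, the rate-limiting enzyme of bile acid synthesis from cholesterol, had 59.4, 338 and 52.8 CPM in wild-type and 466, 178 and 406 CPM in knockout mice (1.22 ± 0.79, adjusted p = 0.588). Wild-type 1 and wild-type 3 were both low for Cyp7a1.

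**Figure D4:**
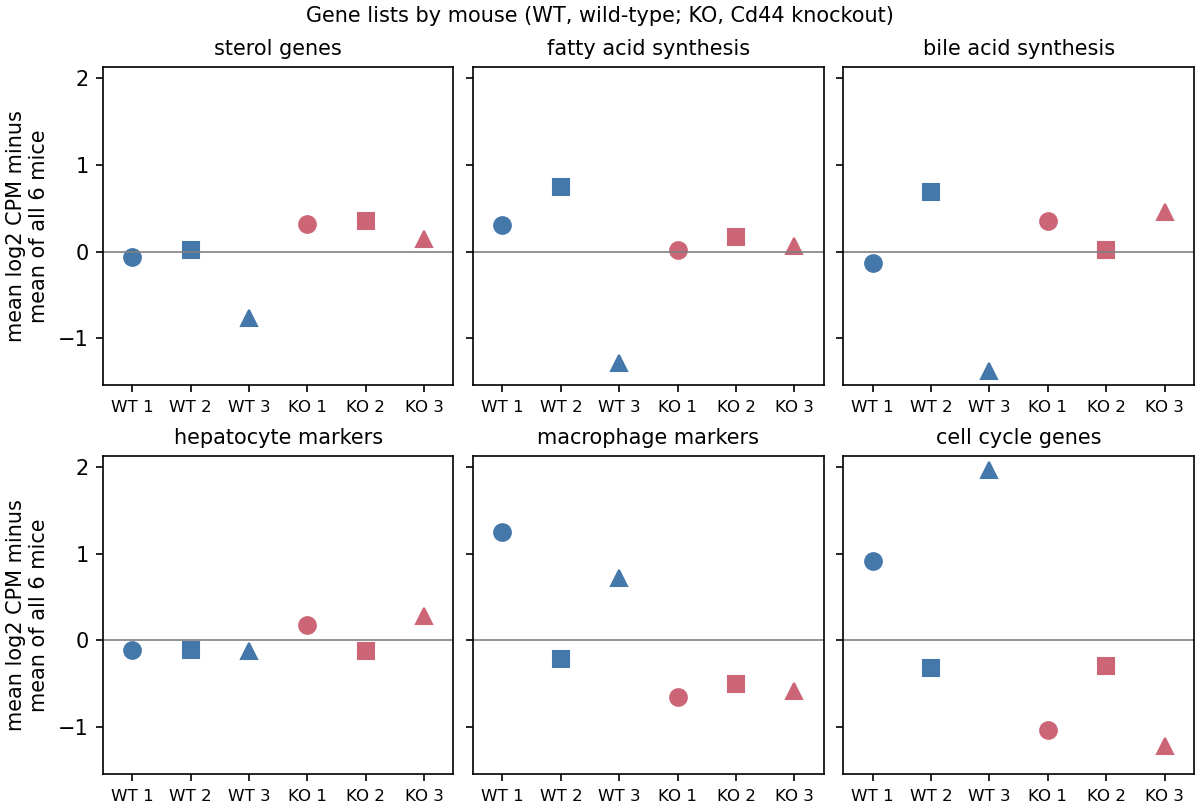
Mean log2 CPM of 6 gene lists in each mouse, minus the mean of the 6 mice. The sterol genes are lowest in wild-type 3 (-0.77) and above 0 in all knockout mice, fatty acid synthesis genes share the low point of wild-type 3 (-1.28) with knockout mice near 0, and macrophage markers are lower in all knockout mice than in any wild-type mouse.

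Among markers of other cells, edgeR called 0 in every list, and some lists differed in level between genotypes. Over all genes tested, 51.1% were lower in mean and 7.59% were lower with an unadjusted edgeR p under 0.05. DESeq2 called 2.03% of genes in either direction. Means of all 10 macrophage markers were lower in knockout mice (median log2 fold change -1.301), and their summed level was 359 to 964 CPM in wild-type against 287 to 319 CPM in knockout mice; edgeR called 0, DESeq2 6, and 9 had an unadjusted p under 0.05. All 8 cell cycle genes were lower (53.0 to 124 CPM summed in wild-type, 31.5 to 40.2 CPM in knockout mice), and wild-type 3 was highest; DESeq2 called 4 of them, edgeR 0. All 7 stellate cell markers were lower in mean, at 351 to 569 CPM summed in wild-type and 309 to 413 CPM in knockout mice, with 1 called by DESeq2 and 0 by edgeR. Of the 5 endothelial markers 4 were lower in mean (median -0.24), and their sums overlapped (124 to 295 and 134 to 201 CPM). All 6 acute-phase genes were lower in mean (median -0.60), and their sums overlapped too (3529 to 7893 and 3597 to 4860 CPM). All 4 tested cholangiocyte markers were lower in mean (median -0.57). They summed to 12.4 to 16.4 CPM in wild-type mice and 8.21 to 10.8 CPM in knockout mice. Cftr, which was not tested, had 2 to 5 counts in wild-type and 0 to 4 in knockout libraries. Tested neutrophil markers reached at most 2.83 CPM and lymphocyte markers at most 9.59 CPM summed; of the defining neutrophil markers, Ly6g and Mpo had 0 to 2 counts in any library. Of 7 tested hepatocyte markers 6 had a higher mean in the knockout (median 0.20). The part of these cells in the sterol gene differences was not tested.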

How the data were processed

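Liver mRNA of 6 mice was selected on poly-T beads and sequenced, per the labels' protocols, and groups were taken from the titles in the labels. The authors deposited unnormalised read counts, a whole number for every gene and mouse. Per the submitters' processing notes, the build was GRCm38.p6 and the tools included featureCounts 1.5.0-p3, HISAT2 2.0.5 and StringTie 1.3.3b. How featureCounts handled strand and reads with several matches is not given in the sources used here, so reads of overlapping genes and near copies cannot be assigned with certainty. Overlaps and shared 50-base stretches were computed from GENCODE M21, which named 54409 of 54532 Ensembl rows. The 150 rows of unnamed gene models, 0.273% to 0.509% of a library, were left out. A count of 0 allows up to 3 counts, which is 0.156 to 0.194 CPM here (counting error only, scaled without TMM factors).

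Counts were fitted in R 4.3.3 with edgeR 4.0.16 (filterByExpr, TMM, robust quasi-likelihood F test, Benjamini-Hochberg over 14145 genes, threshold 0.05). The standard error is the fold change over the square root of F. Alternatives were limma 3.58.1 (voom), DESeq2 1.42.0, RLE scaling, other filters, a mouse-number block, a non-robust fit, protein-coding genes only, a threshold of 0.1 and leaving out each library. An exact permutation test of 3 against 3 mice cannot go below p = 0.1, so p values come from these models. On simulated counts edgeR's share of false calls was slightly above the nominal rate and that of DESeq2 well above it. Those counts were drawn with the variability that edgeR had fitted, so they cannot rank the tools on the real libraries. The DESeq2 calls of members were not shared by edgeR or limma-voom and are read with caution. Labels name separate mice, taken as replicates.

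The members and lists were chosen with earlier results of these data known, so no test over a list is given. All 26 members are accounted for. Values per mouse are given for members with an unadjusted edgeR p under 0.05 or a call by edgeR or DESeq2, for Srebf2, Scap, Insig1, Insig2, Hmgcs1, Idi1, Cyp51 and Dhcr7, and the rest by range; from the other lists at most 2 genes by smallest p are named, with Fasn, marker genes at or near 0 counts and genes that overlap or resemble a member added after their values were seen. Of the listed symbols Tf and Faxdc2 did not match a row.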

Additional observations from a re-analysis of the deposited data

How the results depend on the processing

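The count of members higher in mean ran from 22 to 25 and their median log2 fold change from 0.31 to 0.67 when 1 library was left out, the lowest without wild-type 3 and the highest without wild-type 2; leaving out members that share over 20% of their 50-base stretches, an alternative chosen after seeing the data, gave 20 of 22 higher and a median of 0.47. DESeq2 called 2 members where edgeR called 0, and no other setting called a member. The number of genes called over the whole table was 2 in edgeR, 6 with no low-count filter, 287 with DESeq2 and 0 with limma-voom, and 0 to 151 with 1 library left out, 151 without wild-type 2 and 0 without knockout 2 or knockout 3; the cause was not tested. With mouse number as a replicate block 1 gene and 0 members were called. In that fit 13 members had an unadjusted p under 0.05 against 9 without the block, and the share over all genes with the block is not given here. The same-numbered mice had correlations of their deviations from the group means of -0.02, -0.02 and -0.01. Over all genes these show no pairing by number, but they cannot exclude that same-numbered mice shared a batch. For 4 members the direction turned when 1 library was left out: Acat2 ran from -0.11 to 0.28, Dhcr7 from -0.0336 to 0.33, Lbr from -0.26 to 0.13 and Insig2 from -0.05 to 0.63. With 28 counts in 1 library, Fdps has the least depth of the members.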
